A study of Arabidopsis thaliana with 11 samples.

Results

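The levels of 5-methylcytosine (m5C) in nuclear tRNAs of *Arabidopsis thaliana* seedlings were compared between the *trdmt1* mutant and wild type. *trdmt1* is a T-DNA insertion mutant in TRDMT1, a tRNA methyltransferase of the DNMT2 family (locus AT5G25480, listed in RefSeq as DNMT2). Every tRNA cytosine with a number in both columns of the seedling table was taken, which gave 30 of the 39 sites listed in the series. Of these, 3 were at structural position C38 and 27 were elsewhere. All plants were of the Columbia ecotype, and RNA came from seedlings 10 days after germination. The wild type column is the authors' mean of 3 libraries, with no spread given, and *trdmt1* was 1 library of 1 allele. These are 4 of the 11 libraries of the series, in which tRNA was enriched on gels, bisulfite converted and sequenced (RBS-seq). The other seedling columns, 1 library each, were *trm4a*, *trm4b-1*, *trdmt1 trm4b*, *nsun5-2* and *nop2a-2* (also *oli2-2*), and mixed buds gave 1 wild type and 1 *trm4b-2* library. The *trdmt1 trm4b* double mutant was made with the *trdmt1* and *trm4b-1* alleles. With 1 mutant library no difference could be set against replicate error, so values are described and no test was made. The tables give levels without read numbers, so each level's depth is unknown and no interval could be given. TRDMT1 transcript was not measured in these libraries.

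In bisulfite sequencing an unmethylated cytosine is read as T, while m5C stays C, and the methylation level is the percent of reads with C at a site. DNMT2 proteins carry the motifs of DNA methyltransferases but act on tRNA, at the cytosine that ends the anticodon loop. In fruit fly and mouse this modification is known to protect tRNAs from cleavage and to affect translation. The anticodon loop runs from position 32 to 38, with the anticodon at 34 to 36, and C38 is its last base before the stem closes. The other positions in the table are C48, which closes the variable loop, C49 and C50 in the T stem and C72 in the acceptor stem. C48, C49 and C50 are positions methylated by TRM4 (NSUN2 in mammals), a separate family of tRNA methyltransferases. The study also reported C48 and C49 sites that stayed methylated in the *trdmt1 trm4b* double mutant. Thr(CGT) C48, for example, was at 88% in *trm4b-1* and 84% in the double mutant, against 87% in wild type.

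The 3 tRNAs with a C38 site are shown as the authors' TAIR10 consensus sequences, written as DNA, since the comparison turns on them. Capitals mark every cytosine with a level in the table. From the 5′ end these are C38, C48, C49, C50 and C72 in tRNA Asp(GTC), C38, C48, C49 and C50 in tRNA Gly(GCC), and C38, C48 and C49 in tRNA Gly(CCC).
Asp(GTC): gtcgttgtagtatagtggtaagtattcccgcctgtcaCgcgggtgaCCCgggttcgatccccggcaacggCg
Gly(GCC): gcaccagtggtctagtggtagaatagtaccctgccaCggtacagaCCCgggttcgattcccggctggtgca
Gly(CCC): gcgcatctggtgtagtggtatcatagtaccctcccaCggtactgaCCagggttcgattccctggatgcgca

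These consensus sequences stood for 25, 22 and 5 nuclear loci, and all 52 loci are annotated as tRNA genes in the RefSeq table (assembly TAIR10.1, used for gene types alone). The Asp(GTC) loci were spread over chromosomes 1 (9 loci), 2 (3), 3 (6) and 5 (7). Of the Gly(GCC) loci, 8 were on chromosome 1, 4 each on chromosomes 2 and 3, 1 on chromosome 4 and 5 on chromosome 5. The Gly(CCC) loci were 2 on chromosome 4 and 1 each on chromosomes 2, 3 and 5. Few were close neighbours. Within 5000 bases of each other lay the Asp(GTC) pair AT2G33650 and AT2G33660 (chromosome 2, 14243131 to 14244770 on TAIR10) and 3 pairs of Gly(GCC) loci, such as AT2G30180 and AT2G30190 (chromosome 2, 12881591 to 12882804). Reads were assigned to the consensus, so each level below is that of the whole family of loci.

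Methylation at C38 read at or next to 0% in *trdmt1* in all 3 tRNAs. The aspartate tRNA Asp(GTC) had 0% at C38 in *trdmt1* and 95% in wild type. The glycine tRNA Gly(CCC) likewise had 0% against 95%, and Gly(GCC) had 1% against 92%. The differences were -95, -95 and -91 percentage points, with a median of -95 points, while the median over all 30 sites was -1.5 points. Among sites with a wild type level of at least 20%, those that read no more than 5% in *trdmt1* were classed as lost, and those still above 5% that had fallen by 20 points or more as reduced. This rule called 4 of the 30 sites (13.3%), namely the 3 C38 sites and 1 of the 27 others. All 3 lost sites (10% of the sites compared) were at C38. The smallest fall that was called was 27 points and the largest that was not was 18 points, both outside C38.

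**Figure D1:**
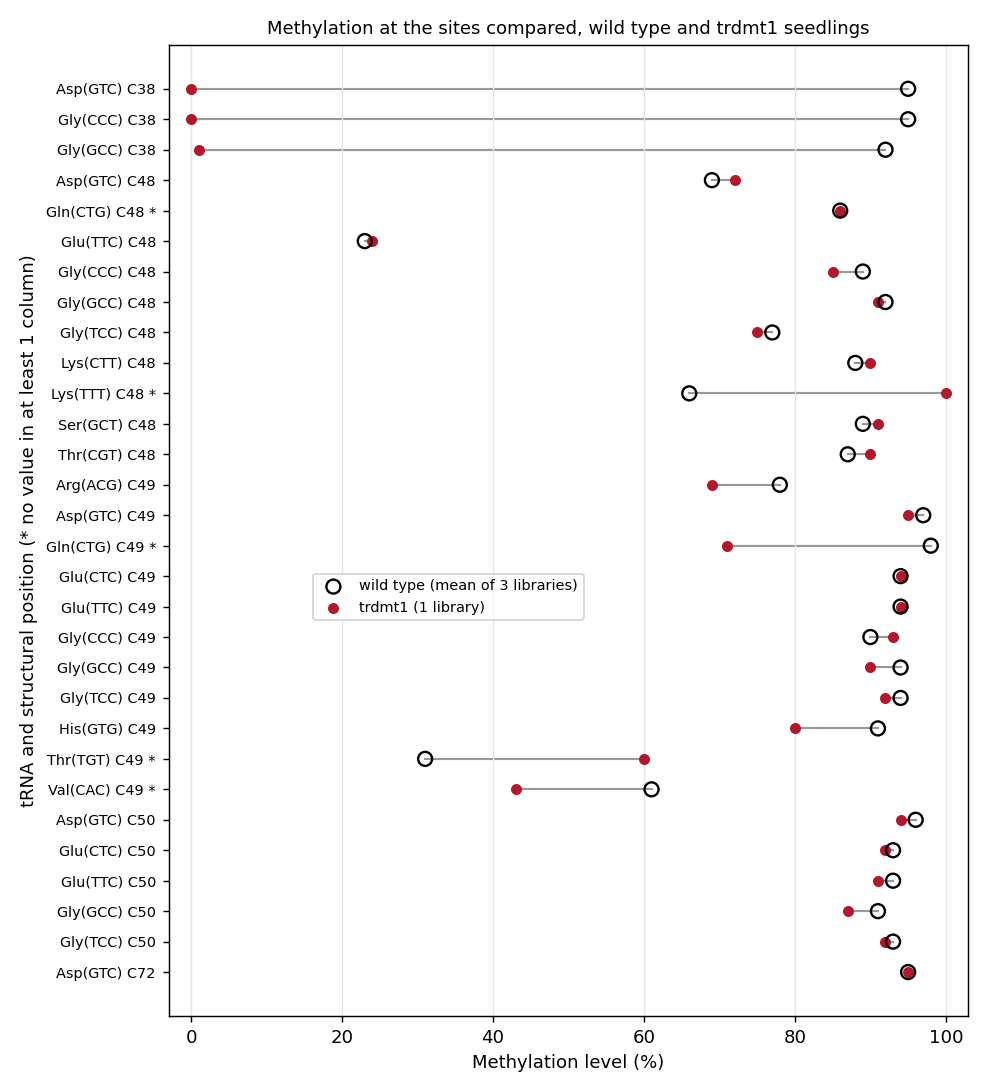
Methylation level in percent (x axis) at each of the 30 sites compared (y axis, ordered by structural position), with open rings for the wild type mean of 3 libraries, filled points for the single *trdmt1* library and a line joining them. The 3 C38 sites lie at 0% or 1% in *trdmt1* and at 92% to 95% in wild type, and the other lines longer than 11 points belong to sites marked with an asterisk, which lack a value in at least 1 column.

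The loss at C38 can be followed in the base that the sequencer read. The 17 bases of the anticodon arm, from position 27 to 43, are shown after conversion in silico of every other cytosine, with position 38 in capitals, for a methylated and an unmethylated C38.
Asp(GTC), C38 methylated: tttgtttgttaCgtggg
Asp(GTC), C38 unmethylated: tttgtttgttaTgtggg
Gly(GCC), C38 methylated: gtattttgttaCggtat
Gly(GCC), C38 unmethylated: gtattttgttaTggtat
Wild type reads at this base were C at the levels of 92% to 95% given above, and *trdmt1* reads were T but for 1% in Gly(GCC). In the converted Asp(GTC) sequence a methylated C38 leaves the word ACGT, the recognition site of HpyCH4IV. The study used this enzyme on Asp(GTC) PCR products from bisulfite-treated RNA. It reported cleavage in wild type and none in *trdmt1* or *trdmt1 trm4b*. With C38 kept, that word was found in 2 of the 17 listed tRNA sequences with C at position 38, Asp(GTC) and the nuclear Val(TAC), and with C38 converted it was found in 0 of them. The converted Gly(GCC) and Gly(CCC) sequences do not hold it.

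C38 levels were high in every column without a *trdmt1* mutation, in seedlings and in buds. Both columns with this mutation were from seedlings, and the bud experiment had none. Asp(GTC) C38 was at 95% in wild type seedlings, 92% in *trm4b-1*, 94% in *trm4a*, 93% in *nop2a-2*, 94% in *nsun5-2*, 96% in wild type buds and 93% in *trm4b-2* buds. Gly(GCC) C38 in the same order was at 92%, 90%, 92%, 89%, 93%, 93% and 94%. Gly(CCC) C38 was more variable, at 95%, 92%, 91%, 80%, 70%, 94% and 95%. These 7 columns have no mutation in TRDMT1. In the *trdmt1 trm4b* double mutant, which carries the same *trdmt1* allele, all 3 sites were at 0%. The 21 values from the 7 columns therefore lay between 70% and 96%, with a median of 93%, and the 6 values from the 2 *trdmt1* columns between 0% and 1%. The gap between these ranges was 69 points. For comparison, the 5 C50 sites were also at 0% or 1% in both *trm4b-1* and the double mutant. Some other low sites there read slightly higher, such as Ser(GCT) C48 at 2% and 5%. That these sites were unmethylated is known here from bisulfite levels alone, so they are no independent control of conversion.

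**Figure D2:**
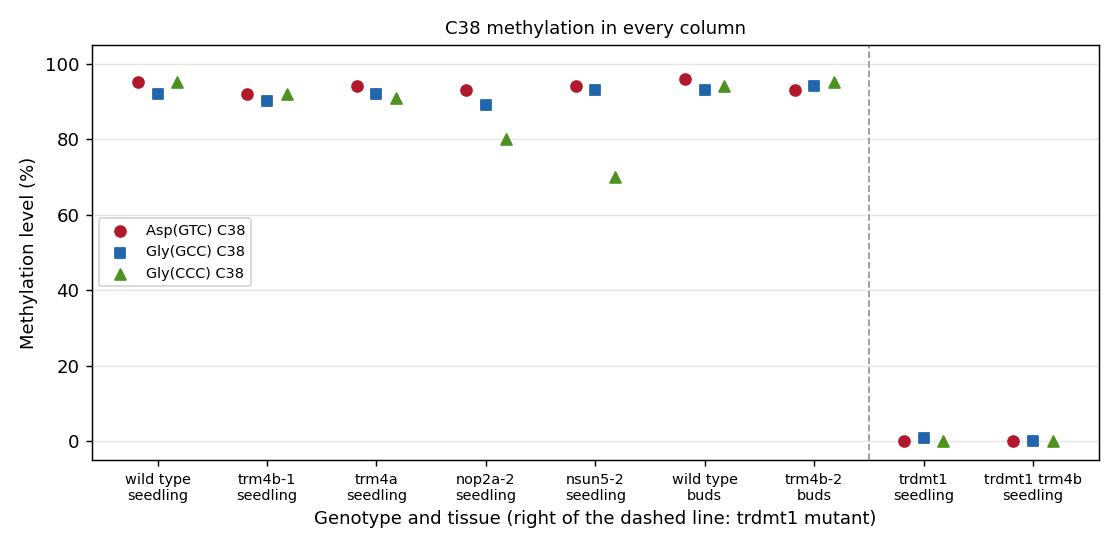
Methylation level in percent (y axis) at C38 of Asp(GTC), Gly(GCC) and Gly(CCC) in each of the 9 columns (x axis), where wild type seedling is a mean of 3 libraries and every other column is 1 library. The 7 columns left of the dashed line, without a *trdmt1* mutation, hold 70% to 96%, and the 2 columns right of it hold 0% or 1%.

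The other cytosines of the same 3 tRNAs stayed near their wild type levels. In Asp(GTC) the *trdmt1* and wild type levels were 72% and 69% at C48, 95% and 97% at C49, 94% and 96% at C50, and 95% at C72 in both. Gly(GCC) had 91% against 92% at C48, 90% against 94% at C49 and 87% against 91% at C50. Gly(CCC) had 85% against 89% at C48 and 93% against 90% at C49. The 9 differences ran from -4 to 3 points, with a median of -2 points. The 18 sites of the 12 tRNAs without a C38 site had a median of -0.5 points and ran from -27 to 34 points. Among the 9 sites 0 were called, and among the 18 sites 1 was called. That is 1 of the 27 sites outside C38, against 4 of all 30 sites (13.3%). Counts this small do not set these groups apart. All 9 sites lay within the range of the wild type, *trm4a*, *nop2a-2* and *nsun5-2* columns. Those ranges were narrow for Asp(GTC) C72 (94% to 95%) and C49 (95% to 97%) and wide for Gly(CCC) C48 (69% to 100%).

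By position, the lists outside C38 had medians within 2 points of wild type. The 10 sites at C48 had a median difference of 1.5 points, with levels of 24% to 100% in *trdmt1* and 23% to 92% in wild type. The 11 sites at C49 had a median of -2 points, and the 5 sites at C50 also -2 points. At C50 all 5 sites were lower in *trdmt1*, each by 1 to 4 points, at 87% to 94% against 91% to 96%. This was not particular to *trdmt1*, since all 5 were also lower in *nop2a-2*, likewise at 87% to 94%. In *trm4a* and *nsun5-2* they were lower too, except Gly(GCC) C50, at 91% and 92% against 91% in wild type. Glu(TTC) C48, the lowest wild type site of the comparison at 23%, was at 24% in *trdmt1*. Over the 27 sites outside C38, 8 were higher in *trdmt1*, 15 lower and 4 equal, with a median absolute difference of 2 points.

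By amino acid the differences outside C38 were uneven. The 5 sites of the glutamate tRNAs Glu(CTC) and Glu(TTC) differed by -2 to 1 points. The 8 sites outside C38 of the glycine tRNAs differed by -4 to 3 points. The sites of Ser(GCT), Thr(CGT) and Lys(CTT), all at C48, were at 91%, 90% and 90% in *trdmt1* against 89%, 87% and 88% in wild type. The other threonine and lysine sites, Thr(TGT) C49 and Lys(TTT) C48, were higher by 29 and 34 points. The largest falls outside C38 were at single sites, Gln(CTG) C49, Val(CAC) C49 and His(GTG) C49, at -27, -18 and -11 points. Arg(ACG) C49 was at 69% against 78%, and in the other columns with intact TRM4B this site ran from 67% in *nsun5-2* to 100% in *nop2a-2*.

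Outside C38, 5 sites stood 10 points or more from wild type, against 8 of all 30 sites (26.7%). Gln(CTG) C49 was the one reduced site, at 71% in *trdmt1* against 98% in wild type. The call was lost with a required fall of 30 points, with a ratio below 0.5, with fully measured sites alone, and against the median of the *trm4a* and *nop2a-2* columns, where the difference was -19 points. It was at 100% in *trm4b-1* and *trm4a*, 88% in *trdmt1 trm4b*, 80% in *nop2a-2*, 92% in wild type buds and 91% in *trm4b-2* buds, and had no value in *nsun5-2*. The *trdmt1* library was thus the lowest of the 8 columns, 9 points below *nop2a-2*, while the double mutant with the same *trdmt1* allele was above *nop2a-2*. The neighbouring C48 of Gln(CTG) was at 86% in both *trdmt1* and wild type.

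Val(CAC) C49 was at 43% in *trdmt1* and 61% in wild type, a difference of -18 points that was not called. It was at 40% in *trm4a*, 83% in *nsun5-2* and 66% in wild type buds, so *trdmt1* lay within the spread of the libraries with intact TRM4B. His(GTG) C49 was at 80% against 91%, a difference of -11 points. In the other columns with intact TRM4B it was at 88% in *trm4a*, 92% in *nsun5-2*, 100% in *nop2a-2* and 91% in wild type buds, and *trdmt1* lay 8 points below the lowest of them.

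A further 2 of the 30 sites (6.67%) were higher in *trdmt1* by 20 points or more. Lys(TTT) C48 was at 100% against 66%, with 22% in *trdmt1 trm4b*, 73% in wild type buds, 20% in *trm4b-2* buds and no value in the other 4 columns. Thr(TGT) C49 was at 60% against 31%. At this site *trm4a* was also at 60%, *nsun5-2* at 40% and wild type buds at 58%, so the wild type seedling mean was the lowest of the columns with intact TRM4B. Against the median of *trm4a* and *nsun5-2* the difference at Thr(TGT) C49 was 10 points.

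These large differences were at sites with missing values. Of the 27 sites outside C38, 22 had a value in each of the 9 columns, and their largest absolute difference was 11 points, at His(GTG) C49. The other 5 sites lacked a value in at least 1 column, and 4 of them were among the 5 sites that stood 10 points or more from wild type. By the study's methods a level needed at least 5 reads, and missing values mark cytosines below that. The part that low read numbers had in these differences was not tested. The 3 C38 sites had a value in every column.

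Single libraries of the other mutants also held sites far from wild type outside C38. Sites 10 points or more from wild type numbered 5 of 27 in *trdmt1*, 5 of 27 in *trm4a*, 5 of 24 in *nop2a-2* and 4 of 24 in *nsun5-2*. The median absolute difference was 2 points in *trdmt1*, 3 in *trm4a*, 4 in *nop2a-2* and 2 in *nsun5-2*. All 4 share the wild type column. At the 26 sites outside C38 with a value in at least 1 of the other 3 mutants, *trdmt1* lay within the range of those mutants and wild type at 23, below it at 2 (Gln(CTG) C49 and His(GTG) C49) and above it at 1 (Ser(GCT) C48, by 2 points). Over the 29 such sites with C38 included, 17.2% were below the range and 3.45% above it. The site left out was Lys(TTT) C48, at 100% in *trdmt1* and 66% in wild type, which had no value in those 3 mutants.

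**Figure D3:**
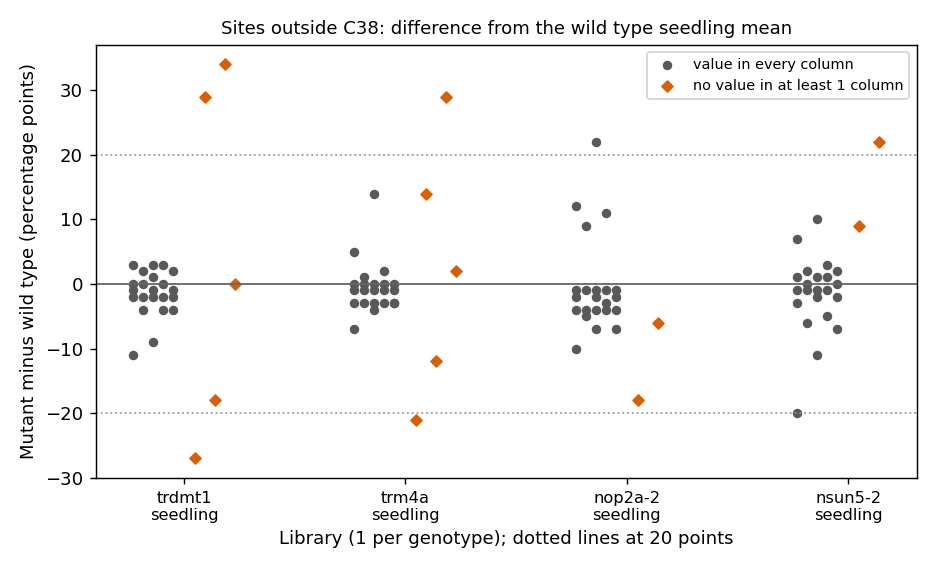
Difference from the wild type seedling mean in percentage points (y axis) at each site outside C38, for the single libraries of *trdmt1*, *trm4a*, *nop2a-2* and *nsun5-2* (x axis), with circles for sites that have a value in every column and diamonds for sites that lack at least 1. In *trdmt1* the circles lie between -11 and 3 points and the diamonds between -27 and 34 points, and dotted lines mark 20 points either way.

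No value in *trdmt1* was given for 9 sites, 6 at C48 and 3 at C49. They were C48 of Arg(TCG), Gln(TTG), Ile(AAT), Leu(TAA), Ser(CGA) and Ser(TGA), and C49 of Ala(AGC), Ala(CGC) and Ala(TGC). Each was the only site listed for its tRNA, so 15 of the 24 tRNAs with a site could be compared. Their wild type levels ran from 33% to 100% in seedlings and from 49% to 90% in buds. None was at C38, C50 or C72. Missing values were not particular to *trdmt1*, since 6 of the 9 sites lacked a value in every other single mutant seedling column. Sites with a value numbered 30 in *trdmt1*, 30 in *trm4a*, 32 in *trm4b-1*, 27 in *nop2a-2* and 27 in *nsun5-2*.

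C at position 38 was itself more frequent than methylated C38. The anticodon was placed in 95 of the 100 consensus sequences, and 17 of these 95 (17.9%) had C at position 38. The placing set no minimum of stem pairs. Gly(ACC), of 1 locus, had only 2 of 5 pairs in the anticodon stem, so its position 38 is uncertain. The others had 4 or 5. Of the 17, 13 were nuclear alone and 4 were from organelles or shared with them. A C38 site was listed for 3 of the 13. For Glu(CTC), Glu(TTC), His(GTG) and Val(CAC) other cytosines were listed but not C38, and for the other 6 nuclear sequences, Gly(ACC), Leu(GAG), Leu(TAG), Met-e-(CAT)1, Val(AAC) and nuclear Val(TAC), no site was listed. By the study's methods a site needed a level of at least 20%. By this rule alone, a C38 that is not listed was either below that level or had too few reads. The study reported that Val(AAC), which TRDMT1 methylates at C38 in animals, lacks this methylation in *Arabidopsis*. It reported the same for every other tRNA it detected, apart from those with a listed C38 site. The glutamate tRNAs had reads in all 9 columns, with C49 at 94% in both Glu(CTC) and Glu(TTC) in wild type and in *trdmt1*. His(GTG) C49 also had a value in all 9 columns, and Val(CAC) C49 had a value in 8.

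The loops differed in the bases around C38. The anticodon arm from position 27 to 43 is shown for the 3 tRNAs with a C38 site and 5 others, with the loop, positions 32 to 38, in capitals.
Asp(GTC): cccgcCTGTCACgcggg
Gly(GCC): gtaccCTGCCACggtac
Gly(CCC): gtaccCTCCCACggtac
Val(TAC): tttgcCTTACACgcaaa
Glu(CTC): ctcggCTCTCACccgag
Glu(TTC): tctggCTTTCACccagg
Val(CAC): ctagtCTCACACactag
His(GTG): ccacgTTGTGGCcgtgg

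The 3 loops with a C38 site had C at 32, C at 36, A at 37 and, as the first base of the stem, G at 39. C at 32 and CAC at 36 to 38 were found in 9 of the 13 nuclear sequences with C at 38, the 3 with a C38 site and Glu(CTC), Glu(TTC), Gly(ACC), Val(AAC), Val(CAC) and Val(TAC). The word CACG, read on the strand shown at positions 36 to 39, was found in 4 of the 95 placed sequences (4.21%), the 3 with a C38 site and nuclear Val(TAC), for which no site was listed. Anywhere in the sequence the word CACG was found in 20% of the 100 consensus sequences, and its reverse complement CGTG in 27 of them. Position 40, where DNMT2 substrates of other organisms often have C, was C in Asp(GTC) and G in both glycine tRNAs. C at 40 was thus found in 1 of the 3 with a C38 site, and in 7 of all 17 sequences with C at 38. His(GTG) had T at 32 and G at both 36 and 37. Gly(GCC) and Gly(CCC) shared 16 of the 17 bases of the arm, differing at the first anticodon base alone, and Asp(GTC) shared 8 with Gly(GCC) and 7 with Gly(CCC). Positions 36 and 39 were chosen after the sequences had been seen, and a shared base is a description of these sequences, not of what the enzyme requires.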

How the data were processed

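Gel-purified tRNA was bisulfite converted and sequenced by the authors, who aligned reads to TAIR10 tRNA consensus sequences with C replaced by T, using CLC Genomics Workbench of a version not given in the sources used here. The deposited values are percent methylation, rounded to whole percents, which the authors obtained by dividing the reads that kept C by all reads showing C or T there. Resistant cytosines other than m5C would read the same, and loci that differ from their consensus cannot be seen. An in vitro transcript without m5C controlled conversion and was not analysed here. All 9 columns of values were matched to genotypes by name. N.D. cells were dropped. Calls used a wild type minimum of 20%, a lost level of 5% and a fall of 20 points. Position 38 was placed from the named anticodon, and other positions from the 3′ end. Named sites were all those of tRNAs with a C38 site and all that differed by 10 points or more, with other values as examples. Sites, lists and rules were chosen with earlier results of these data known. The code for calls and placing was run on simulated data built with the same cut-offs and fully paired stems. That checks the code, not the calls or placing in these data. Alternatives were other thresholds, fully measured sites, means, another baseline and another placing of position 38. Python 3.11.15 and matplotlib 3.10.9 were used.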

Additional observations from a re-analysis of the deposited data

How the results depend on the processing

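Of 49 alternatives, 35 left their value within 1.5 times (counts) or 3 points (differences) of the reported one, 3 points being the median absolute difference of *trm4a*, *nop2a-2* and *nsun5-2* from wild type, and 0 reversed a called difference. The 3 C38 sites were lost under each one run, but most of these settings could not have changed that. At 0% or 1% in *trdmt1* the sites met the lost level of 5%, which the rule applied before any fall or ratio. The count of lost or reduced sites outside C38 was 1 and went to 3 with a fall of 10 points, and to 0 with a fall of 30 points, with a ratio below 0.5 or with fully measured sites alone. Against the median of *trm4a*, *nop2a-2* and *nsun5-2* in place of wild type it was 1 again, but the site was Arg(ACG) C49, at 69% against 92%. Sites higher by 20 points numbered 2 and went to 1 with a rise of 30 points, 0 with fully measured sites alone and 0 with that other baseline, which lacked Lys(TTT) C48. The median difference at C38 was -91 points with that baseline, and Gly(CCC) C38 alone went from -95 to -80 points. The mean absolute difference outside C38 was 6.19 points where the median was 2 points. Among the single sites, Gln(CTG) C49 was at -19 points with that baseline. Counted from the 3′ end with a variable loop of 5 bases, 16 sequences had C at position 38 in place of 17, but 7 were shared and none of the 3 tRNAs with a C38 site was among them, since their variable loops are shorter. No paired analysis was possible because the wild type libraries were deposited as a mean and *trdmt1* had 1 library. For the same reason no wild type library could be left out.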
